A study of Mus musculus with 8 samples.

Results

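In 4 spatial transcriptomic sections of mouse heart, the capture spots richest in transcripts of vascular smooth muscle were compared with the bulk of the spots of the same section. Spots with at least 5000 unique molecular identifiers (UMIs, each counting 1 captured mRNA molecule) were ranked in each section by the summed share of Myh11, Tagln and Cnn1 in all UMIs. The top 2% are called vessel spots here, and the lower 90% served as the rest. The rule gave 131 vessel spots of 6542 ranked spots and 7160 spots in all: 28 in the sham section, 41 in the TAC-2w section, 24 in the TAC-4w section and 38 in the TAC-6w section. The lower 90% held 5886 spots. The hearts came from male C57BL/6J mice operated on at 8 weeks of age. The animals had transverse aortic constriction (TAC), which narrows the aortic arch and loads the left ventricle with pressure, and were taken 2, 4 or 6 weeks later, or had the sham operation. Values given in series of 4 follow this order: sham, then TAC-2w, TAC-4w, TAC-6w. Each condition is 1 section and 1 single-cell library, so no test between conditions was possible. The sections of sham and TAC-2w carry 1 batch label and those of TAC-4w and TAC-6w a label each, so condition and batch cannot be told apart beyond the first pair. The tests below compare spots within a section and hence within a batch. Levels and ratios set side by side between sections are descriptions, and all but those of sham and TAC-2w cross batch labels.

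Smooth muscle cells wrap arteries, arterioles and larger veins and set their calibre. Their contraction runs through calcium, calmodulin and the kinase that phosphorylates myosin regulatory light chain, and the proteins of this machinery are switched on together by the serum response factor and its cofactor myocardin. The same cells lay down the elastic lamellae of the arterial wall, beside the adventitial fibroblasts outside and the endothelium inside. A spot covers several cells, so every value is a mixture, and more cells of a type cannot be told apart from more RNA per cell.

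The ranking genes describe the selection and are left out of every result that follows. Myh11 encodes the smooth muscle myosin heavy chain, Tagln an actin-binding protein and Cnn1 calponin. Summed over these 3 genes, vessel spots ranged from 246 to 6673 UMIs per 1000000 UMIs (CPM) with a median of 486. The last spot taken and the first left out stood at 474 and 471 CPM in sham, 246 and 244 in TAC-2w, 362 and 313 in TAC-4w, and 284 and 281 in TAC-6w, so the limit fell within a continuous range. In the lower 90%, between 70.2% and 78.7% of spots had no UMI of the 3 genes. The evidence per spot was uneven. The median vessel spot had 12 ranking UMIs and 22 of the 131 had fewer than 5, and 18 of these 22 lay in TAC-6w, where 17 of 38 vessel spots had under 10000 UMIs in all. The median depth of vessel spots and of the lower 90% was 21607 and 18101 UMIs in sham, 25111 and 24668 in TAC-2w, 29901 and 27982 in TAC-4w, and 15226 and 25700.5 in TAC-6w. TAC-4w also stood apart in cardiomyocyte transcripts: Myh7, the slow myosin heavy chain, was at 7265 CPM in its lower 90% against 22.6 to 91.4 CPM in the other sections.

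Vessel spots formed many small and separate groups (the map of the spots). In sham, 11 of 28 touched another vessel spot. This was so for 22 of 41 in TAC-2w, 13 of 24 in TAC-4w and 15 of 38 in TAC-6w. Touching spots merged into 21, 25, 15 and 28 groups counting single spots, and the largest held 3, 8, 6 and 4 spots. Touching spots may share 1 vessel, so the 131 spots are not independent. Position was not used by the rule. A spot at the tissue edge has fewer than 6 neighbours over tissue, and 5 of the 131 vessel spots were of this kind. The share was 3.57% against 11.1% of the lower 90% in sham, 4.88% against 8.36% in TAC-2w, 8.33% against 9.96% in TAC-4w and 0% against 8.45% in TAC-6w. At the top 2% it was lower in 4 of 4 sections, with a mean difference of -5.28 ± 3.26 percentage points (SD, n = 4). The exact two-sided sign-flip permutation test gave p = 0.13, the smallest value that 4 sections allow. This did not hold for every choice of spots: TAC-4w turned at the top 5% of spots (15.0% against 9.96%, mean difference over sections -1.64) and with Myh11 alone as the ranking gene (16.7% against 10.3%, mean difference -3.48).

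**Figure D1:**
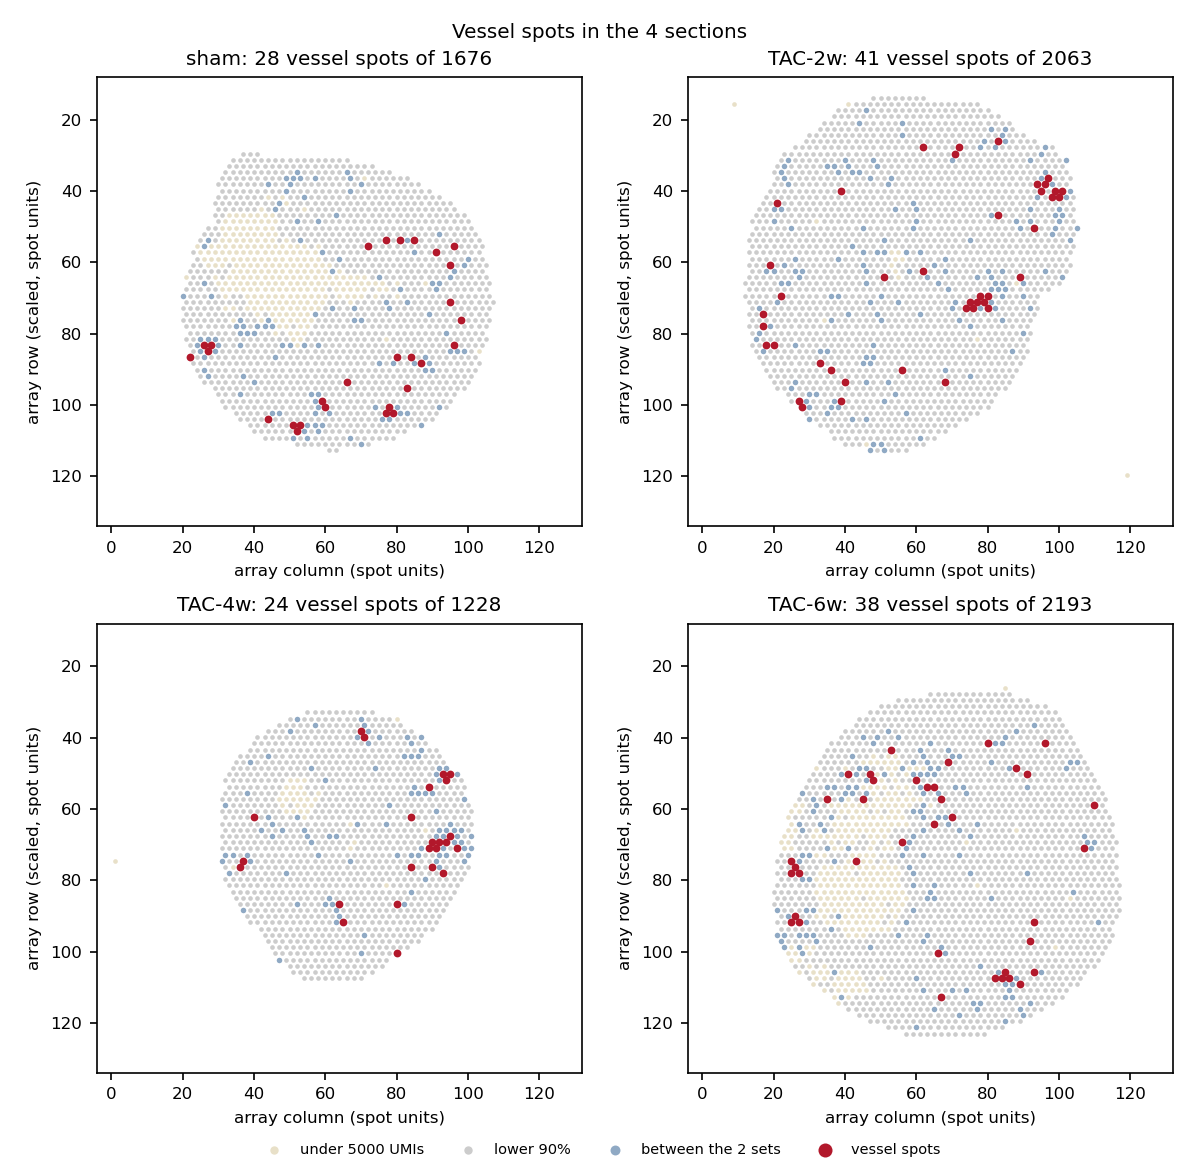
Position of every spot on the capture array in the 4 sections, with array column against scaled array row in spot units. Vessel spots (red, 28, 41, 24 and 38) lie singly or in groups of up to 8, and spots between the 2 compared sets and spots under 5000 UMIs are shown in blue and cream.

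The question of the main comparison was which other transcripts share these spots. The UMIs of the vessel spots and of the lower 90% were summed in each section, and the 4 pairs of sums were tested with edgeR's quasi-likelihood test with section as a block, so that a section and not a spot is the replicate. The spots were chosen on 3 genes of the same libraries, so the test describes what travels with those genes and is no independent support for the choice. Of 12167 genes tested, 701 (5.76%) were higher in vessel spots and 785 (6.45%) were lower at an adjusted p below 0.05. These shares are the background for every count of list members in this comparison. Of those higher, 671 were higher in all 4 sections, and of those lower, 302 were lower in all 4. Without the sham section 522 genes were lower, and without TAC-4w 452. The balance of higher to lower rested on the scaling. The default scaling by the trimmed mean of M-values put the median gene at a log2 difference of -0.03, whereas scaling by total UMIs put it at 0.29 and gave 1729 genes higher and 63 lower. The leading genes differed by far more than this shift, and 71 of the 785 genes called lower were above 0 with total UMIs. Log2 differences below are from the default scaling with a standard error (SE) derived from the test statistic. CPM values are per total UMIs, and both scalings are given where the direction depends on it.

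Of the 20 leading genes (the plot of leading genes), 8 are on the contractile list described below: Actg2, Lmod1, Myl9, Nrip2, Acta2, Tpm2, Mylk and Flna. Actg2, the actin isoform typical of visceral smooth muscle, was at 29.4, 13.1, 10.0 and 19.0 CPM in the vessel spots and at 0.530, 0.249, 0.105 and 0.386 CPM in the lower 90%. It had the largest log2 difference of the leading genes (5.45, SE 0.41, adjusted p = 3.50e-19), on 52 UMIs over all vessel spots. Ccdc3 followed with 42.5, 20.2, 25.8 and 48.9 CPM against 1.02, 0.657, 0.733 and 2.18 CPM (log2 difference 4.59, SE 0.28, adjusted p = 2.90e-24). In both genes the section ratios lay between 22.5-fold (Ccdc3 in TAC-6w) and 95.8-fold (Actg2 in TAC-4w). The rule for leading genes required a ratio above 1 in all 4 sections, so the direction is no separate result. Itih4, an inter-alpha-trypsin inhibitor heavy chain of the extracellular matrix, was 68.7-fold, 59.5-fold, 11.3-fold and 25.0-fold higher. Among the leading genes, the ratio varied most between sections in Comp.

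**Figure D2:**
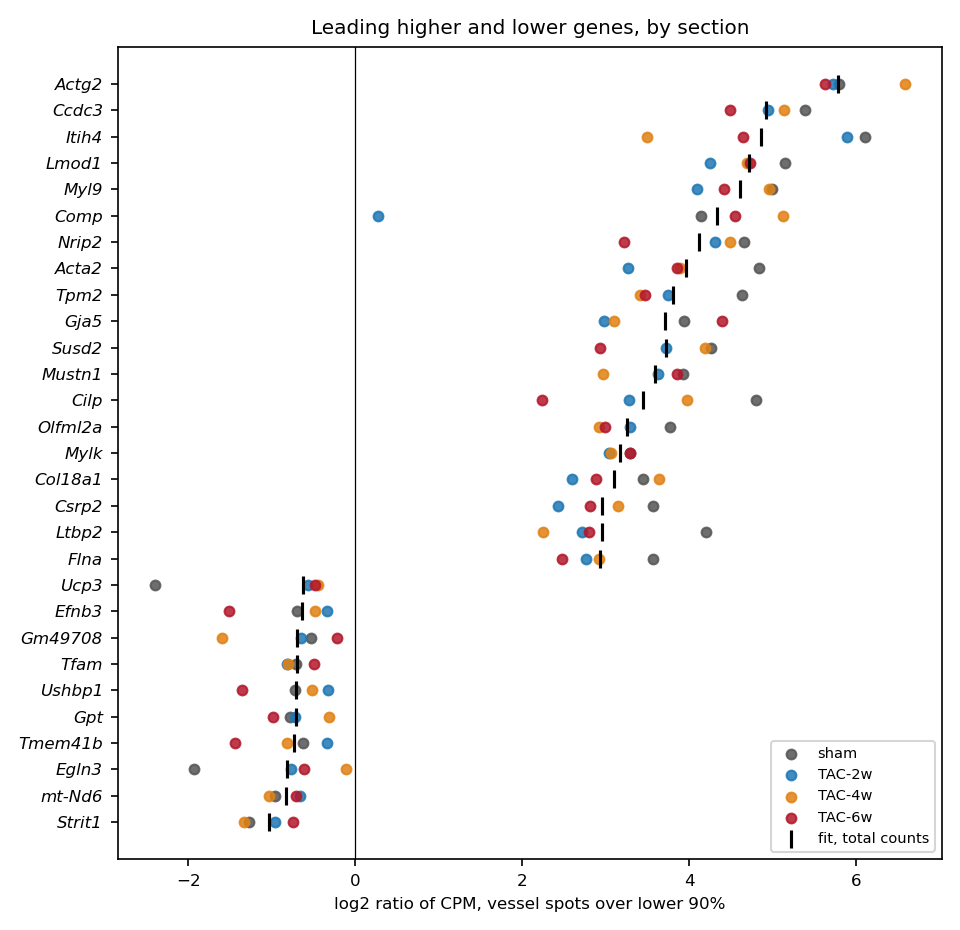
Log2 ratio of CPM in vessel spots over the lower 90% (x axis) for 19 of the leading higher and the 10 leading lower genes, 1 point per section, with a bar at the fitted value under total-count scaling. All points of the 19 higher genes lie above 0, which the rule for leading genes required. Comp in TAC-2w (1.21-fold) lies far from the other sections of that gene.

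Contractile genes of smooth muscle that the ranking did not use rose together. Of 19 listed, 17 were higher and none lower, with a median log2 difference of 2.60 beside -0.03 over all genes tested. Acta2, the alpha-actin of smooth muscle, stood at 1337, 568, 646 and 888 CPM in the vessel spots and at 46.8, 58.9, 43.4 and 61.4 CPM in the lower 90%. Its log2 difference was 3.63 (SE 0.10, adjusted p = 2.11e-47), and at least 1 UMI was seen in 28 of 28, 40 of 41, 24 of 24 and 34 of 38 vessel spots, against 46.4% to 67.9% of spots in the lower 90%. Myl9, the regulatory light chain that the kinase phosphorylates, stood at 721, 309, 463 and 488 CPM against 22.5, 18.1, 14.9 and 22.7 CPM (log2 difference 4.28, SE 0.09, adjusted p = 1.51e-55). Both genes were highest in the sham vessel spots and lowest in those of TAC-2w. Mylk, the myosin light chain kinase itself, had the steadiest ratio of the leading genes, between 8.21-fold and 9.82-fold (log2 difference 2.84, SE 0.12, adjusted p = 2.86e-34). Tpm2, a tropomyosin, was 10.7-fold to 24.9-fold higher and Lmod1, which nucleates actin filaments, 19.0-fold to 35.5-fold. Flna, a crosslinker of actin, was 5.56-fold to 11.9-fold higher. Ppp1r14a, an inhibitor of myosin phosphatase, rose by 2.33 (SE 0.18) on the log2 scale, and Ppp1r12b, a regulatory subunit of that phosphatase, by 0.46 (SE 0.11). Itga8, an integrin subunit, rose by 2.92 (SE 0.34). The 2 listed genes that did not pass were Synpo2 (log2 difference 0.24, SE 0.13, adjusted p = 0.296) and Pcp4l1 (0.02, SE 0.10, adjusted p = 0.941). Spot by spot, 28 of 28 vessel spots in sham, 37 of 41 in TAC-2w and 23 of 24 in TAC-4w exceeded the 95th percentile of the lower 90% for the summed list, but 25 of 38 did in TAC-6w.

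As these genes moved together, their promoters were read for the CArG box, the site of serum response factor, in the RefSeq windows from 250 bases before to 50 bases after the annotated start (GRCm38.p6). A window was found for 14 of the 20 leading genes and for 16 of the 19 contractile genes. An exact CArG box stood in 1 of those 14 genes and in 1 of those 16, Myl9 in both, and in 1.81% of all 27025 genes with a window (1.63% of 32851 windows). Among the 9568 tested genes with a window, the share with an exact box was 1.62%. With 1 departure from the motif allowed, 6 of the 14 leading genes and 6 of the 16 contractile genes held a match. The share was 23.8% of all genes with a window (21.1% of windows) and 20.1% of the tested genes with one. It was 24.7% of the 523 genes called higher and 26.3% of the 617 genes called lower that had a window. Matches were searched on both strands. The windows of 3 leading genes with matches are printed because they show the exact box and the near matches, which are in capitals. That of Acta2 is chr19:34255324-34255623 on the minus strand, that of Myl9 is chr2:156775214-156775513 on the plus strand, and that of Lmod1 is chr1:135324563-135324862 on the plus strand.
Acta2: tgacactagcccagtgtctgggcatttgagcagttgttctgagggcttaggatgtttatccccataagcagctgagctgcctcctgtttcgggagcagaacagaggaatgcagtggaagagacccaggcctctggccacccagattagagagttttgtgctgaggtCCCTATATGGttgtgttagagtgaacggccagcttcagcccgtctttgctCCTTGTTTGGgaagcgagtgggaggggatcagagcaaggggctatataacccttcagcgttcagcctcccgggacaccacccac
Myl9: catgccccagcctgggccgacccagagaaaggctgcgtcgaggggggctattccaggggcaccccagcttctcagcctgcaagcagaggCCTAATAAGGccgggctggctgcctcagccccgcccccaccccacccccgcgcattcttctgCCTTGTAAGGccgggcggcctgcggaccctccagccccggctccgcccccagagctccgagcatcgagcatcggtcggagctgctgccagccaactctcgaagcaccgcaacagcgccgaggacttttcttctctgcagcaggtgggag
Lmod1: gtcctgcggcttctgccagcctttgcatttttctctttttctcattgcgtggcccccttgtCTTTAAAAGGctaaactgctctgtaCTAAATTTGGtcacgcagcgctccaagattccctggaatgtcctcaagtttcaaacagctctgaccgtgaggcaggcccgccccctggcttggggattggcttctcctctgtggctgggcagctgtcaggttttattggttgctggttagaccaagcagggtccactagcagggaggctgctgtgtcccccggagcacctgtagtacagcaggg
The exact box of Myl9, CCTAATAAGG, begins 161 bases before the start. The near matches begin 84 and 34 bases before it in Acta2, 99 bases before it in Myl9, and 189 and 164 bases before it in Lmod1. A match is a stretch of letters and no evidence of binding, and a window without one says only that these letters are not in it.

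Of 14 regulators of the smooth muscle programme tested, 5 were higher and none lower (median log2 difference 0.42): Notch3, Heyl, Jag1, Foxc1 and Klf4. Notch3, the Notch receptor of mural cells, stood at 88.3, 47.5, 60.2 and 53.0 CPM in vessel spots and at 25.0, 17.0, 24 and 32.6 CPM in the lower 90% (log2 difference 1.00, SE 0.14, adjusted p = 3.54e-08). Jag1, a Notch ligand, rose by 1.35 (SE 0.22), and Heyl, a Notch target, by 0.72 (SE 0.18), although Heyl was at 16.2 CPM against 15.0 CPM in TAC-2w. Foxc1, a forkhead factor, rose by 0.99 (SE 0.35, adjusted p = 0.0471), and did not pass when any 1 section was left out. Heyl did not pass without sham or without TAC-4w, nor Klf4 without sham or without TAC-2w. The cofactor myocardin itself, Myocd (-0.12, SE 0.39), and serum response factor, Srf (-0.01, SE 0.20), did not pass, with adjusted p = 0.910 and 0.983. They had 17 and 64 UMIs over all vessel spots. Without the sham section 2 regulators passed, without TAC-2w 3, without TAC-4w 3 and without TAC-6w 4, whereas 16 or 17 contractile genes passed in each case. In the single-cell libraries described below, Notch3 and Heyl were highest in Myh11 cells, Jag1 and Foxc1 in Cdh5 (endothelial) cells and Klf4 in Pdgfra (fibroblast) cells. Myocd, which did not pass in the spots, was at 154 CPM on average in Myh11 cells and at 0.178 CPM or less in the other classes.

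Among channels and receptors that set vessel tone, 5 of 17 tested were higher and 2 lower, and 7 further listed genes were too low to test. The higher genes were Gucy1a1 (1.26, SE 0.18) and Gucy1b1 (0.72, SE 0.17), the subunits of the nitric oxide receptor, Pde5a (1.70, SE 0.35), which degrades the cyclic GMP it makes, Ptgir (1.39, SE 0.42), the prostacyclin receptor, and Kcnmb1 (1.71, SE 0.44), the beta subunit of the large-conductance potassium channel. Gucy1a1 was higher in 4 of 4 sections, at 49.0, 32.4, 28.6 and 29.9 CPM against 13.0, 8.50, 11.9 and 13.3 CPM. Cacna1c, the L-type calcium channel that cardiomyocytes also use, was lower by the default scaling (-0.37, SE 0.12) but at -0.04 with total UMIs. Adra1b, an adrenergic receptor, was the other lower gene (-0.68, SE 0.24), and neither passed with total UMIs. The angiotensin receptor Agtr1a (-0.29, SE 0.20) and the endothelin receptor Ednra (0.12, SE 0.17) did not pass. Without the sham section, 3 of the listed genes were higher and 1 lower. Ptgir did not pass without sham or without TAC-4w, nor Kcnmb1 without sham or without TAC-6w, and Adra1b passed only without TAC-6w.

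Of 12 genes of pericytes, the mural cells of capillaries, 2 were higher and 3 lower by the default scaling. The summed list per total UMIs was 1.36, 1.15, 1.35 and 1.26 times its level in the lower 90%, with every counting interval above 1. That scaling put the median of all genes tested at a log2 difference of 0.29, so an interval above 1 does not set the list apart. Without mitochondrial and rRNA-like features in the total, the list was at 1.12, 1.10, 1.18 and 1.15 times. The higher pair, Mcam (1.42, SE 0.13) and Cspg4 (1.33, SE 0.16), are an adhesion molecule and a proteoglycan. Mcam stood at 101, 55.6, 67.3 and 96.5 CPM in the vessel spots and at 27.8, 14.1, 16.7 and 39.5 CPM in the lower 90%. Rgs5, a regulator of G-protein signalling high in pericytes, did not pass (-0.04, SE 0.09, adjusted p = 0.871), but was at 0.30 and past the threshold with total UMIs (adjusted p = 0.00594). The lower genes Kcnj8 (-0.44, SE 0.14) and Abcc9 (-0.51, SE 0.11), which form a potassium channel of pericytes, and Colec11 (-0.74, SE 0.22) were at -0.13, -0.18 and -0.43 with total UMIs and not past the threshold. Of the 12 genes, 6 were higher and none lower with that scaling, which called 1729 of all 12167 genes higher and 63 lower.

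Genes of the wall matrix rose too. Of 17 elastic fibre genes, 14 were higher and none lower (median log2 difference 0.99). Eln, elastin, stood at 91.5, 75.9, 58.7 and 179 CPM in the vessel spots and at 16, 14.4, 15.4 and 42.2 CPM in the lower 90% (log2 difference 1.91, SE 0.13, adjusted p = 8.15e-23). The level in TAC-6w was highest in both sets of spots, and the ratio ran from 3.81-fold to 5.71-fold. Mfap4, a microfibril protein, had the second largest difference of the list (2.46, SE 0.16), and Ltbp2, which binds microfibrils, the largest (2.62, SE 0.27). Fbln5, needed to assemble elastic fibres, rose by 1.38 (SE 0.15). Efemp1 (-0.09, SE 0.34), Efemp2 (0.47, SE 0.29) and Mfap2 (0.82, SE 0.41) did not pass.

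Of 16 basement membrane genes tested, 6 were higher and none lower. Npnt, nephronectin, a ligand of the integrin that holds the subunit Itga8, had a log2 difference of 5.37 (SE 0.54, adjusted p = 1.57e-13), with 7, 8, 4 and 11 UMIs in the vessel spots and levels of 11.4, 8.09, 5.73 and 15.0 CPM. In the lower 90% it was between 0.0453 and 0.431 CPM. With 30 UMIs in all it is not among the leading genes, which needed 50. Col18a1, a collagen of vessel basement membranes, rose by 2.77 (SE 0.19). The widespread collagen IV chains Col4a1 (0.17, SE 0.09) and Col4a2 (0.10, SE 0.09) did not pass by the default scaling. With total UMIs 13 of the 16 genes were higher. That scaling called 1729 of all 12167 genes higher and put the median gene at a log2 difference of 0.29.

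Fibroblast genes were higher as well. Of 16 fibrillar collagen and fibroblast genes, 15 were higher and none lower (median 0.93), and Tcf21 (0.56, SE 0.31) did not pass. The 2 with the largest differences were Serpinf1 (1.94, SE 0.13), a secreted serpin, and Pi16 (1.59, SE 0.11), a gene of adventitial fibroblasts. Pi16 stood at 252, 74.9, 242 and 257 CPM against 43.9, 33.9, 47.6 and 87.0 CPM, so the vessel spots of TAC-2w were apart from the others. Of the genes linked to the synthetic state of smooth muscle, 9 of 9 tested were higher, among them Mgp (1.46, SE 0.09), which inhibits calcification, and Timp1 (1.88, SE 0.25), an inhibitor of matrix proteases. Without the sham section, 6 of the 9 were higher. Most of the 9 are genes of other cells too. In the single-cell libraries Mgp and Timp1 were highest in Pdgfra cells, Lgals3 and S100a4 in Ptprc (leukocyte) cells, and Ly6a and Fn1 in Cdh5 cells. Of the 9, only Vim was highest in Myh11 cells, at 3709 CPM against 3513 CPM in Pdgfra cells.

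A list of valve and cartilage-like genes had 6 of 7 tested members higher, and its section values differed widely. Comp, cartilage oligomeric matrix protein, was at 16.3, 1.01, 87.4 and 84.3 CPM in the vessel spots, on 10, 1, 61 and 62 UMIs, and at 0.928, 0.838, 2.51 and 3.61 CPM in the lower 90%. The ratio was 1.21 in TAC-2w with a counting interval of 0.0298 to 7.15, and at least 17.6 in each of the other sections. Cilp, cartilage intermediate layer protein, was 27.8-fold, 9.74-fold, 15.8-fold and 4.73-fold higher, while its level in the lower 90% ran from 3.74 CPM in TAC-2w to 53.2 CPM in TAC-6w. Prg4, lubricin, stood at 255 CPM in the vessel spots of TAC-4w and at 13.1 to 62.1 CPM in the others (log2 difference 2.29, SE 0.16). The intervals cover counting error only, and 1 section per condition allows no test of these differences.

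Of 12 arterial genes, 7 were higher and none lower (median 0.94). Gja5, the connexin of arterial endothelium, stood at 19.6, 11.1, 7.16 and 35.3 CPM in the vessel spots and at 1.28, 1.40, 0.837 and 1.68 CPM in the lower 90% (log2 difference 3.42, SE 0.35, adjusted p = 2.27e-13). Sema3g, a semaphorin of arteries, was at 39.2, 26.3, 54.4 and 59.8 CPM against 7.46, 4.74, 18.0 and 9.06 CPM (1.93, SE 0.19). Stmn2 (1.59, SE 0.23), Gja4 (1.29, SE 0.16), Vegfc (1.02, SE 0.31), Unc5b (0.85, SE 0.26) and Sox17 (0.75, SE 0.19) were the other genes higher, although Vegfc did not pass without sham or without TAC-6w, nor Unc5b without TAC-4w or without TAC-6w. Efnb2 (0.05, SE 0.29), Dll4 (-0.04, SE 0.25) and Hey1 (0.72, SE 0.30), Notch pathway and ephrin genes of the same endothelium, did not pass. Of 9 venous and large-vessel genes tested, 3 were higher: Cytl1, Bgn and Nr2f2. Of these, Nr2f2 (0.73, SE 0.20) is the venous identity factor and did not pass without TAC-2w. In the single-cell libraries described below, Nr2f2 was at 186 CPM on average in Myh11 cells and 138 CPM in Cdh5 cells. Bgn is also a gene of fibroblasts, Cytl1 is also on the valve and cartilage-like list, and Vwf (0.30, SE 0.15) did not pass. The capillary list had 5 of 12 genes lower, all with small differences, and 2 higher. Cd36 (-0.49, SE 0.09) and Fabp4 (-0.47, SE 0.09), for fatty acid uptake, Gpihbp1 (-0.55, SE 0.10), which anchors lipoprotein lipase, Rgcc (-0.62, SE 0.12) and Flt1 (-0.39, SE 0.12) were between -0.06 and -0.30 with total UMIs, and none passed. The pan-endothelial Cdh5 (-0.15, SE 0.11) did not pass, whereas Cldn5 (1.23, SE 0.14), the tight junction claudin, and Pecam1 (0.52, SE 0.10) rose. The summed capillary list was 1.01, 1.03, 1.05 and 0.927 times its level in the lower 90% per total UMIs. Without mitochondrial and rRNA-like features in the total, it was 0.829, 0.985, 0.914 and 0.847 times.

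Markers of other cells were read in the same spots, and their part in the results above was not tested. Over all genes tested, 5.76% were higher and 6.45% lower. Of 11 macrophage genes, 8 were higher and none lower, C1qb by 0.79 (SE 0.10) and Mrc1 by 0.79 (SE 0.15), and the summed list was 2.69-fold, 1.74-fold, 2.34-fold and 1.39-fold higher. Of 10 Schwann cell and nerve genes tested, 3 were higher, Scn7a, Pmp22 and Nrn1, and 1 lower, Cryab, a chaperone that is abundant in heart muscle, but the defining Mbp (-0.17, SE 0.73) did not pass. Of 5 lymphatic genes tested Reln passed (1.38, SE 0.44), though not without sham, TAC-2w or TAC-4w. The summed mesothelial list, on 5 to 17 UMIs in vessel spots, was 3.55-fold higher in TAC-2w and at 0.636 to 0.837 times in the other sections. No mesothelial gene of 3 and no lymphocyte gene of 5 tested passed in edgeR with all sections, and 1 lymphocyte gene was lower without TAC-6w. Red cell genes were 5 of 6 lower by the default scaling and 0 of 6 with total UMIs, and 3 were lower without TAC-4w or without TAC-6w. Of 2 adipocyte genes tested, Scd1, a fatty acid desaturase, was higher (0.88, SE 0.29), though only without TAC-2w did it pass among the fits that left out a section, and the 10 others, Adipoq and Plin1 among them, were too low to test. Of 18 genes of TGF-beta and BMP signalling, 6 were higher and none lower: Tgfb3, Bmp2, Thbs1, Acvrl1, Tgfbr2 and Id3. The median log2 difference of the 18 was 0.29, beside -0.03 over all genes tested. Tgfb3, a ligand, rose by 1.65 (SE 0.26) and Bmp2, another ligand, by 1.88 (SE 0.55) on 14 UMIs. Without the sham or the TAC-6w section 3 of the 18 passed, and Bmp2 and Thbs1 did not.

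**Figure D3:**
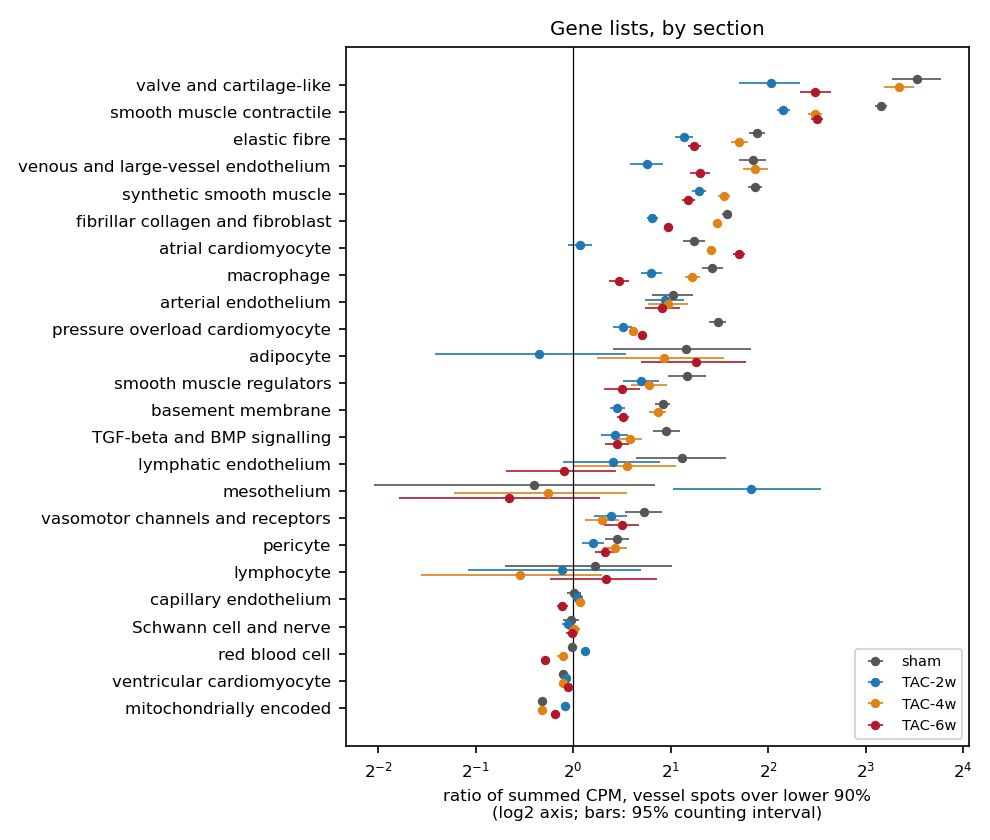
Ratio of summed CPM in vessel spots over the lower 90% for the 24 gene lists (log2 axis), 1 point per section with its 95% counting interval. Contractile genes are 4.46-fold to 8.93-fold higher in every section, and valve and cartilage-like genes 4.07-fold to 11.5-fold. The capillary and ventricular lists sit between 0.927 and 1.05 per total UMIs.

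Summed ventricular cardiomyocyte transcripts were lower in vessel spots than in the rest, by a margin that depended on the scaling. All 16 ventricular genes were lower by the default scaling, but their log2 differences ran only from -0.53 to -0.27, and with total UMIs Tnnc1 and Mybpc3 were above 0 and 1 of the 16 passed. Without TAC-4w, 10 were lower. The summed list was at 66262, 75912, 62385 and 70994 CPM in the vessel spots and at 71169, 79631, 67166 and 73665 CPM in the lower 90%, a ratio of 0.929 to 0.964. Without mitochondrial and rRNA-like features in the total, the ratios were 0.767, 0.913, 0.808 and 0.880. All 13 mitochondrially encoded genes were lower, and 12 of them also with total UMIs, while 8 were lower without TAC-4w. These genes took 41.7%, 41.1%, 34.0% and 38.9% of UMIs in vessel spots and 51.9%, 43.5%, 42.5% and 44.3% in the lower 90%. Mitochondrial UMIs are part of the total that the ranking divided by. When spots were ranked on totals without the mitochondrial and rRNA-like features, 13 of 13 genes were lower. The 10 leading lower genes had smaller differences than the leading higher ones. Strit1, a small peptide that activates the calcium pump of cardiomyocytes, fell by 1.35 on the log2 scale (SE 0.17), from 63.0, 55.1, 25.3 and 40.9 CPM to 26.2, 28.3, 10.0 and 24.5 CPM. The others were mt-Nd6, Egln3, Tmem41b, Gpt, Ushbp1, Tfam, Gm49708, Efnb3 and Ucp3, at log2 differences of -1.16 to -0.93. Tfam, the mitochondrial transcription factor, had 43 UMIs in vessel spots against 70.1 expected at the level of the lower 90%. Ucp3, an uncoupling protein, had 33 against 50.4 expected, with 1 UMI in sham. All 10 had a log2 difference below 0 with both scalings.

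Of 8 pressure overload genes, 5 were higher and none lower, Ccn2 by 1.09 (SE 0.11) and Ankrd1 by 0.57 (SE 0.09), and Nppb (0.14, SE 0.10) and Acta1 (0.05, SE 0.09) did not pass. Mfap5, which is on the elastic fibre list too, was also among the 5 (1.37, SE 0.11). In the single-cell libraries described below, Ccn2 and Mfap5 were highest in Pdgfra cells, at 1103 and 2324 CPM on average. Myh11 cells held them at 673 and 57.6 CPM, and no class of cardiomyocytes was defined. Nppa, atrial natriuretic peptide, was at 467, 81.9, 5770 and 2427 CPM in the vessel spots and at 87.0, 135, 1702 and 500 CPM in the lower 90%. It was thus higher in vessel spots in 3 sections and lower in TAC-2w, where the ratio was 0.606 (counting interval 0.481 to 0.755), and its fitted log2 difference over the 4 sections was 1.29 (SE 0.15). The atrial markers Myl7 and Sln were too low to test, Dkk3 rose by 2.44 (SE 0.37), on 6, 1, 19 and 12 UMIs, and Myl4 (1.2, SE 0.58) did not pass. Dkk3 is not particular to atrial cells here: in the single-cell libraries it was highest in Pdgfra cells, at 179 CPM on average. Myh7 rose by 0.50 (SE 0.14) but did not pass without sham or without TAC-6w, and its sign turned without the section block (-0.23, not past the threshold).

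Spots rich in fibrillar collagen were taken as the most similar region, and 27 spots belonged to both sets. The second comparison set 104 vessel spots against 104 spots that ranked in the top 2% for Col1a1, Col1a2 and Col3a1, with spots in both sets left out. The 3 collagens and the 3 ranking genes were left out of the test, but these spots were chosen on matrix genes and the shared spots were removed, so that lower matrix and fibroblast genes in vessel spots are a description and no independent finding. Of 4433 genes tested, 45 (1.02%) were higher in vessel spots and 44 (0.993%) lower. By section ratios per total UMIs, all 45 were higher and 33 of the 44 lower in 4 of 4 sections. The contractile list had 11 of 15 genes higher, among them Myl9 (2.51, SE 0.12, adjusted p = 3.39e-20), Acta2 (2.21, SE 0.10, adjusted p = 1.75e-20) and Lmod1 (2.77, SE 0.43, adjusted p = 2.65e-05). Myl9 was at 553, 303, 382 and 310 CPM in the vessel spots and at 90.7, 67.2, 60.8 and 49.1 CPM in the collagen-rich spots. Mrvi1, a target of cyclic GMP signalling in smooth muscle, was higher by 2.02 (SE 0.37), as were Ccdc3, Mustn1, Tpm2 and Mylk by 2.16 to 2.51. Notch3 (0.94, SE 0.20), Col18a1 (1.73, SE 0.33), Mcam (1.25, SE 0.20), Cspg4 (1.25, SE 0.28), Sema3g (1.40, SE 0.29), Stmn2 (1.3, SE 0.35) and Cldn5 (0.76, SE 0.20) were also higher. Of these, Sema3g and Cspg4 did not pass without TAC-2w or without TAC-6w, and among the fits that left out a section Stmn2 passed only in that without sham and Cldn5 only in that without TAC-6w.

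Matrix genes led those lower in vessel spots than in collagen-rich spots. Postn, periostin, was at 47.2, 27.6, 96.9 and 161 CPM against 159, 106, 581 and 457 CPM (-1.93, SE 0.14, adjusted p = 4.00e-14). Thbs4, thrombospondin 4, fell by 2.04 (SE 0.25) and Ltbp2 by 1.41 (SE 0.31). Nupr1, Medag, Adamts5, Col6a3 and Col5a1 completed the leading 8, at -1.40 to -1.11. Medag passed only without TAC-4w among the fits that left out a section. Nupr1 did not pass without TAC-2w or without TAC-6w, Adamts5 and Col6a3 not without TAC-6w, and Ltbp2 not without TAC-4w. Thbs4 was too low to test without TAC-6w. In this comparison 0 of 13 elastic fibre genes were higher and 4 were lower, and 0 of 12 fibroblast genes were higher and 5 lower. Without TAC-2w, without TAC-4w or without TAC-6w, 2 elastic fibre genes were lower, and without TAC-6w 1 was higher and 3 fibroblast genes lower. Nppa was also lower than in collagen-rich spots (-1.15, SE 0.22), though not past the threshold without TAC-2w. Ventricular and mitochondrial genes gave no call of 16 and 13 tested, with medians of 0.03 and 0.03, although 2 mitochondrial genes were higher without sham. DESeq2 called 13 genes higher and 3 lower. Without TAC-2w the counts were 27 and 17, and without TAC-6w 28 and 14.

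Levels fell within 1 spot step of the vessel spots (the plot by distance). The ranking genes fell from 1038, 501, 679 and 783 CPM in the vessel spots to 75.7, 43.5, 70.4 and 52.4 CPM 1 spot step away, which the ranking itself sets in part. The contractile list, which holds none of the ranking genes, fell from 4269, 2022, 2600 and 3120 CPM to 710, 578, 654 and 734 CPM at 1 step, and stood at 477, 454, 465 and 547 CPM at 4 or more steps. Spots 1 step away exclude every neighbour that was itself taken, and several contractile genes follow the ranking genes spot by spot. The selection thus sets part of this fall too. The contractile level at 1 step was 1.38 ± 0.0920 times that at 4 or more steps (SD, n = 4). Arterial endothelial genes fell from 333, 224, 309 and 360 CPM to 190, 139, 188 and 219 CPM at 1 step and 160.5, 115, 152 and 191 CPM at 4 or more steps. Elastic fibre genes fell to 764, 513, 635 and 1249 CPM at 1 step. The atrial list differed between sections: in TAC-4w it fell from 6980 CPM through 4193 CPM at 1 step to 2096 CPM at 4 or more steps, and in TAC-2w it was between 475 and 543 CPM at every distance. In the vessel spots of TAC-4w most of this list was Nppa.

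**Figure D4:**
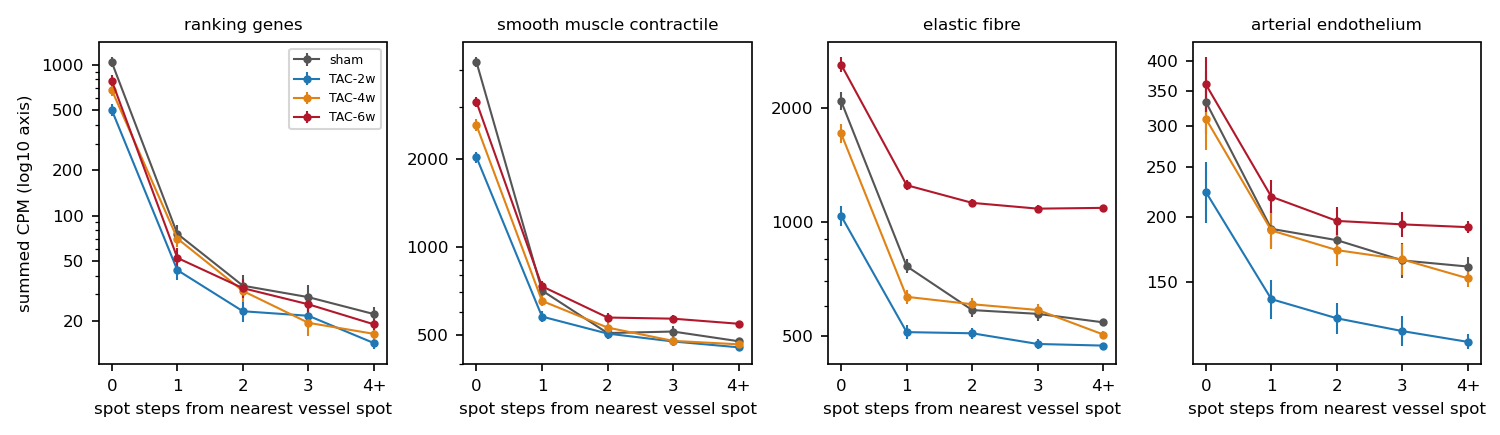
Summed CPM (log10 axes) of the ranking genes, the contractile list, the elastic fibre list and the arterial endothelial list by spot steps from the nearest vessel spot, 1 line per section with 95% counting intervals. Most of the fall occurs within the first step, from 4269 to 710 CPM for contractile genes in sham, and the selection sets part of it.

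Between sections the pooled vessel spots of sham had the highest contractile level and those of TAC-2w the lowest, in CPM and as a ratio to their own section, but the median vessel spot was lowest in TAC-6w, at 3283, 1925, 2161 and 1349 CPM. In TAC-6w single spots ran from 192 to 23674 CPM, a wider range than in the other sections. The summed list was at 4269 CPM (95% counting interval 4107 to 4436) in sham, 2022 in TAC-2w, 2600 in TAC-4w and 3120 in TAC-6w, and at 478, 453, 465 and 551 CPM in the lower 90%. The ratios were 8.93 (8.55 to 9.32), 4.46 (4.26 to 4.67), 5.59 (5.32 to 5.87) and 5.66 (5.42 to 5.91), so TAC-4w and TAC-6w, neighbours in this order, had overlapping intervals. These intervals cover counting error only, and which vessels each section crosses was not measured. Apart from sham and TAC-2w, the sections also differ in batch label. The order between sham and the others stayed the same at the top 1% and 5% of spots, whereas TAC-4w and TAC-6w changed places at 5%. Single spots and groups of at least 3 differed most in TAC-6w, where 23 single vessel spots had 1817 CPM at a median of 8347 UMIs and 11 grouped ones had 5869 CPM at 16258 UMIs. The single spots of the other sections were at 4018, 1971 and 2254 CPM and the grouped ones at 4872, 2264 and 3081 CPM.

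Which cells hold these genes was read in the single-cell libraries of the same 4 conditions, a separate readout from other libraries. Cells with at least 2 UMIs of Myh11 and none of the genes that defined the other classes were taken as 1 class, and Pdgfra, Cdh5 and Ptprc defined fibroblast, endothelial and leukocyte classes in the same way. The Myh11 class was small, with 54, 58, 6 and 16 cells of 8228, 6501, 6747 and 5577 cells kept. No doublet caller was run, and pairs of libraries shared 9 to 30 cell barcodes, at most 0.359% of the smaller library. Of the 20 leading genes, 15 had their highest mean level in the Myh11 class, and 13 did so in all 4 libraries. Acta2 was at 21657, 23145, 25962 and 19934 CPM in Myh11 cells and at 41.0 CPM on average in Pdgfra cells. Actg2, Ccdc3, Itih4, Lmod1 and Nrip2 were at 152 to 1134 CPM on average in Myh11 cells and at 11 CPM or less in every other class. Free RNA in the droplets can add a low level to every class, so levels of this size are not read as expression.

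Other leading genes belonged to other classes. By the mean over libraries Cilp, Comp and Ltbp2 were highest in Pdgfra cells, Cilp at 272 CPM on average and at 0.586 CPM in Myh11 cells. Comp was at 58.5, 87.9, 1606 and 173 CPM in Pdgfra cells, and also at 204 and 201 CPM in Cdh5 cells of sham and TAC-2w against 1.37 and 47.9 CPM in those of TAC-4w and TAC-6w. Its rank by the mean rests on TAC-4w: without that library, an alternative added after seeing the data, the means were 106 CPM in Pdgfra cells and 151 CPM in Cdh5 cells. Gja5 was highest in Cdh5 cells, at 37.6, 21.0, 119 and 120 CPM, with 1 UMI in all Myh11 cells. Over all 165 genes (1.36% of those tested) that were called higher at least 2-fold, were higher in 4 of 4 sections and had 50 UMIs in vessel spots, 66 were highest in Myh11 cells, 71 in Pdgfra cells, 13 in Cdh5 cells and 4 in Ptprc cells. Eln was at 303 CPM in Myh11 cells, 551 CPM in Pdgfra cells and 467 CPM in Cdh5 cells, and Mgp at 2043, 13147 and 4515 CPM. Notch3 (257 CPM), Npnt (242 CPM), Gucy1a1 (692 CPM), Kcnmb1 (132 CPM) and Rgs5 (1632 CPM) were highest in Myh11 cells, and Sema3g and Stmn2 in Cdh5 cells. No class of pericytes was defined, so these ranks do not set smooth muscle apart from pericytes. Gja4, listed as arterial endothelial, was at 284 CPM in Myh11 cells and 86.0 CPM in Cdh5 cells, and Ptgir was higher in Pdgfra cells (18.7 CPM) than in Myh11 cells (4.04 CPM).

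**Figure D5:**
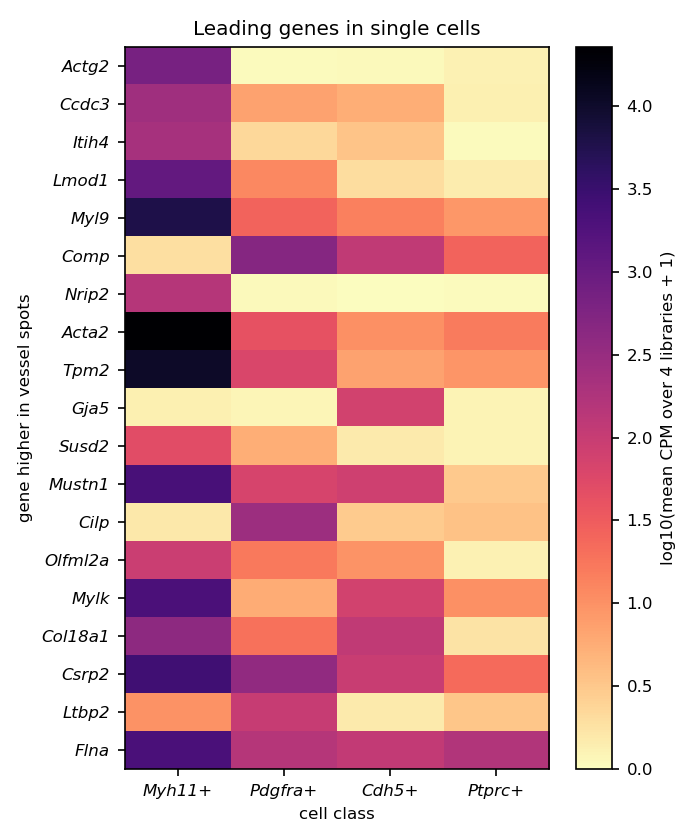
Mean level over the 4 single-cell libraries, as log10(CPM + 1), of 19 leading genes in 4 classes of cells defined by 1 gene each. For 15 genes the Myh11 class is darkest, while Cilp, Ltbp2 and, by its TAC-4w level, Comp peak in the Pdgfra class and Gja5 in the Cdh5 class.

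Across single spots, the genes most like the summed ranking genes were named by the mean of the 4 within-section Pearson correlations over 9321 genes and 6542 spots, as a description. They were Acta2 (0.839), Myl9 (0.831), Tpm2 (0.785), Flna (0.657), Mustn1 (0.584), Myl6 (0.539), Csrp1 (0.517), Crip1 (0.493), Csrp2 (0.473) and Mylk (0.467). Acta2 ran from 0.743 in TAC-2w to 0.893 in TAC-6w. The points share libraries, depth and neighbouring tissue. Myl6, a light chain found in most cells, and Crip1, a LIM-domain protein, are in this group without being in the contractile list.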

How the data were processed

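Mouse heart sections (Visium) and single-cell libraries were used, 1 of each per condition. The deposited values are UMI counts per gene and spot or cell on mm10, not normalized. Per the labels the authors ran Space Ranger 1.3.1 and Cell Ranger 7.0.0, whereas the file headers name versions 1.2.0 and 6.0.0. Sections held 25996378 to 48754396 UMIs. Counts were summed per section over vessel spots and over the lower 90%, the 3 ranking genes were left out, and the sums were filtered with filterByExpr, scaled by TMM and tested in edgeR 4.0.16 (glmQLFTest, R 4.3.3) with section as a block. P-values were adjusted by the Benjamini-Hochberg method over all genes tested, with a threshold of 0.05. Both sums come from the same section, which is the source of the pairing. DESeq2 1.42.0 and limma 3.58.1 were alternatives. The fits were tested on simulated counts with known changes, each the same in all 4 sections, and with no difference in the other genes. Differences that vary between sections, as that of Comp does, were not simulated. In the main comparison 30% of 1.5-fold, 54% of 2-fold, 83.7% of 4-fold and 98% of 8-fold changes were recovered, with 11 false calls. Against collagen-rich spots 55.1% of 1.5-fold and 89.1% of 2-fold changes were recovered, with 7 false calls. A gene that did not pass may thus still differ, most easily by 2-fold or less. Members, lists and tests were chosen with earlier results of these data known. Leading genes were those with the largest (20) and smallest (10) log2 difference among genes past the threshold, of 1 direction in all 4 sections and with at least 50 UMIs in vessel spots, or expected there for lower genes (8 and 8 against collagen-rich spots). The direction in each section was read from ratios per total UMIs. Genes of the 24 lists were also named. Cells kept had 200 to 6000 genes, 500 to 30000 UMIs and under 15% mitochondrial UMIs. Nothing says more than 1 animal stands behind a section. P-values and SEs rest on a spread between 4 sections of different conditions that the fit estimates with information shared between genes. They can understate the spread of a single gene. Cilp, for example, had an SE of 0.15, while its 4 section log2 ratios had an SD of 1.08. A leading gene and a marker gene, with the cell class that the marker defined, are not reported here.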

Additional observations from a re-analysis of the deposited data

Results flagged for a closer look

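Nppa drew attention since its difference between vessel spots and the lower 90% ran in opposite directions in different sections, beyond counting error. Its ratio was 5.38 in sham, 3.39 in TAC-4w and 4.86 in TAC-6w, and 0.606 in TAC-2w. The difference between sections was not tested, since each condition is 1 section. The TAC-2w and sham sections share a batch label and lie on opposite sides of 1. The summed atrial list, of which Nppa is a member, was 2.36 times its level in the lower 90% in sham, 1.05 times in TAC-2w, 2.66 times in TAC-4w and 3.25 times in TAC-6w. Nppa alone made up most of that list in the vessel spots of TAC-4w and TAC-6w. The list is therefore no separate support for the pattern of Nppa.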

How the results depend on the processing

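Of 701 genes higher and 785 lower than in the lower 90%, scaling by total UMIs gave 1729 and 63, no section block 182 and 5, and spots thinned to 5000 UMIs 199 and 234. limma gave 464 higher and DESeq2 394 lower. Leaving out 1 section gave 479 to 665 higher and 452 to 696 lower. With total UMIs the log2 differences of Rgs5, Tnnc1 and Mybpc3 turned to 0.30, 0.044 and 0.063, and without the block that of Myh7 turned to -0.23. Against collagen-rich spots, 45 were higher and 44 lower in the reported fit. DESeq2 gave 13 and 3, no section block 13 and 0 (196 at an unadjusted p below 0.05, 416 with the block), and thinned spots 5 and 4. Ranking without mitochondrial and rRNA-like features gave 74 higher, the top 5% of spots 67 lower, and leaving out 1 section 27 to 46 higher and 14 to 41 lower. The share of vessel spots touching another was 57.5% at the top 5%. The contractile ratio was 12.3, 5.65, 7.15 and 8.56 at the top 1% and 5.54, 3.05, 3.82 and 3.52 at the top 5%. Without mitochondrial and rRNA-like features it was 7.35 in sham, 4.86 in TAC-4w and 5.17 in TAC-6w. The leading genes and the genes of all lists that were called in the reported fits were followed when 1 section was left out. Against the lower 90%, 9 to 30 of them lost their call, 144 to 165 kept it and none turned its direction. Against collagen-rich spots 8 to 17 lost it and 26 to 36 kept it. The cause of these changes was not tested. Limiting the lower 90% to the depth range of vessel spots has no counterpart for collagen-rich spots and was not run there. Depth limits single spots most in TAC-6w.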
